A study of Mus with 9 samples.

Results

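Immediate early genes are the genes that neurons switch on first after strong synaptic input, without waiting for new protein. The 10 described here are Fos, Fosb, Junb, Egr1, Egr2, Egr3, Npas4, Nr4a1, Ier2 and Arc. They were taken by name, by matching the gene symbol in both deposited tables, and all 10 were found, on 12 of 22206 probe sets, among 22662 symbols in all. Hippocampal RNA came from male mice in 3 groups of 3 arrays each. The age given, 16 weeks, precedes the dosing and testing described below, so the mice were older at dissection. SAMR1 is an inbred strain with normal aging, and SAMP8 is a related strain whose memory declines early. Both received vehicle (saline in the records, water in the methods). The TG-treated SAMP8 group received trigonelline (TG), an alkaloid of coffee and fenugreek, orally for 30 days at a daily dose of 5 mg/kg. Dosing went on through 8 days in the Morris water maze, a swimming test of spatial memory that all 3 groups took. Both strains are inbred lines that differ at many loci, so a strain difference cannot be assigned to a single allele. The interval between the last swim and dissection is not given in the sources used here, and the level of these genes depends on it.

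Calcium entry through synaptic receptors and channels activates signalling enzymes, kinases among them. These act on transcription factors already bound at the promoters of immediate early genes, chiefly CREB, SRF with its ELK partners, and MEF2. Transcripts appear within minutes and most are degraded quickly. Most of the proteins made are themselves transcription factors, which go on to drive a slower set of genes for synapse growth and plasticity. In the hippocampus, Fos, Arc and Egr1 are widely used to mark neurons that were active during learning. Several of these genes also respond to growth factors, stress and tissue handling, in glia and blood vessels as well as in neurons.

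The deposited tables give 1 average per group on the log2 scale, and values per array were not analysed here. So no average below carries an error, no difference could be set against the spread between mice, and no test was run. A difference is the first group's average minus the second's, in log2 units, with its linear fold where useful, and rounding of the averages can shift it by up to 0.01. A gene is called higher or lower past the limit when the averages differ by more than 1.5-fold, which is 0.58 on the log2 scale. For scale, each difference was set beside those of the probe sets of like average signal (20 classes of 1110 or 1111). Both tables carry identical SAMP8 averages, which enter 2 of the 3 comparisons with opposite sign, so a high or low SAMP8 average alone moves a gene in opposite ways in them. Median levels of all 22206 probe sets lay between 6.04 and 6.09 in the 3 groups.

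Most of the 10 genes were lowest in SAMR1 and highest in TG-treated SAMP8. In 7 of them (Fos, Egr1, Egr2, Arc, Npas4, Nr4a1 and Ier2) the averages stood in the order SAMR1, SAMP8, TG-treated SAMP8, an order found in 16.6% of all probe sets. SAMR1 held the lowest average for 8 genes and TG-treated SAMP8 the highest for 8, counts given without a share of all probe sets. For Egr2 the margin over SAMP8 was 0.01, which rounding alone can give. The exceptions to the order were Fosb, highest in SAMR1, Junb, lowest in SAMP8 by a margin of 0.02, and Egr3, highest in SAMP8. Another Egr3 probe set was lowest with TG, at 8.73 in SAMR1, 8.87 in SAMP8 and 8.34 with TG.

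**Figure D1:**
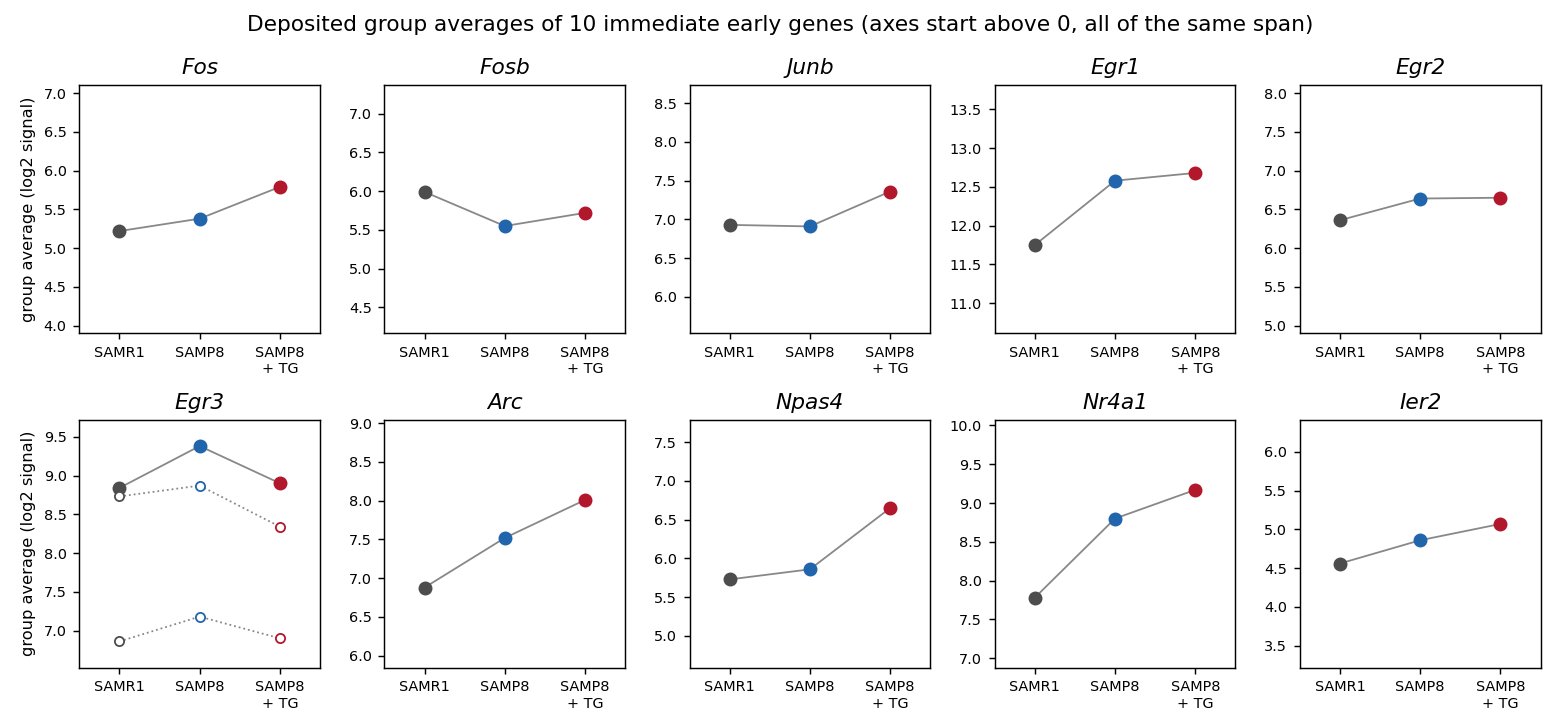
Each panel plots the deposited group averages of 1 gene (log2 signal, vertical axis) in SAMR1 (grey), SAMP8 (blue) and TG-treated SAMP8 (red), on axes that start above 0 and have the same span. Filled points are the probe set used, open points with dotted lines are the other probe sets of Egr3, and there are no error bars because values per array were not analysed. Nr4a1 and Arc have the widest gaps from SAMR1 to TG-treated SAMP8, 1.39 and 1.13, while Egr3 peaks in SAMP8.

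In the SAMP8 vs SAMR1 comparison, which asks how the strains differ without treatment, Nr4a1, Egr1 and Arc were higher in SAMP8 past the limit and none of the 10 was lower past it. Nr4a1 was 2.03-fold higher, Egr1 1.78-fold and Arc 1.56-fold. Across all probe sets, 11.1% passed the limit, 5.00% as higher and 6.08% as lower, so 3 of 10 higher is above that share. Of the other 7 genes, 5 had a higher average in SAMP8 and 2, Fosb and Junb, a lower one. The median difference of the 10 genes was 0.29, against 0.00 over all probe sets. Nr4a1 and Egr1 lay above the middle 95% of probe sets of like signal, which ended at 0.87 and 0.75. Arc at 0.64 lay inside that range, and its call is lost at 0.58 when the median of probe sets of like signal is subtracted.

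Between TG-treated and nontreated SAMP8, a comparison that asks what TG was followed by within the strain, Npas4 was the single gene past the limit, 1.73-fold higher with TG. The share of all probe sets past the limit was 8.21%, with 4.48% higher and 3.74% lower, so 1 of 10 is near the background and is not a result about the group. The averages of 9 of the 10 genes were higher with TG, with Egr3 the exception at -0.48, and 50.0% of all probe sets were higher. The median difference was 0.29, against 0.01 over all probe sets. Among the 9, Egr2 differed by 0.01, which rounding alone can give. The 10 genes respond to shared inputs and were read on the same arrays, so their directions are not separate observations. All 10 differences lay within the middle 95% of probe sets of like signal. Egr1 and Egr2, at 0.10 and 0.01, turned to -0.22 and -0.01 when the median of probe sets of like signal and gene length was subtracted. That left 7 of the 10 above 0 and 3 below.

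TG-treated SAMP8 against SAMR1, groups that differ in both strain and treatment, gave the largest median difference. Each difference here is the sum of the other 2 for the same gene, so this comparison is not a separate result. Nr4a1 was 2.62-fold higher in the TG-treated group, Arc 2.19-fold, Egr1 1.91-fold and Npas4 1.89-fold, and these 4 passed the limit. Past it lay 10.5% of all probe sets, 5.62% as higher and 4.83% as lower, so 4 of 10 is above the background share. On the probe sets used, Fosb was the single gene with a lower average than in SAMR1, at -0.27. Egr3 was at 0.06, but another of its probe sets was at -0.39 and the mean over its probe sets was -0.10. The median difference of the 10 genes was 0.54, against -0.01 over all probe sets. Nr4a1, Arc and Npas4 stood above the middle 95% of probe sets of like signal, whereas Egr1 at 0.93 stayed just under its upper end of 0.97. The call of Egr1 is lost, at 0.50, when the median of probe sets of like signal and gene length is subtracted.

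**Figure D2:**
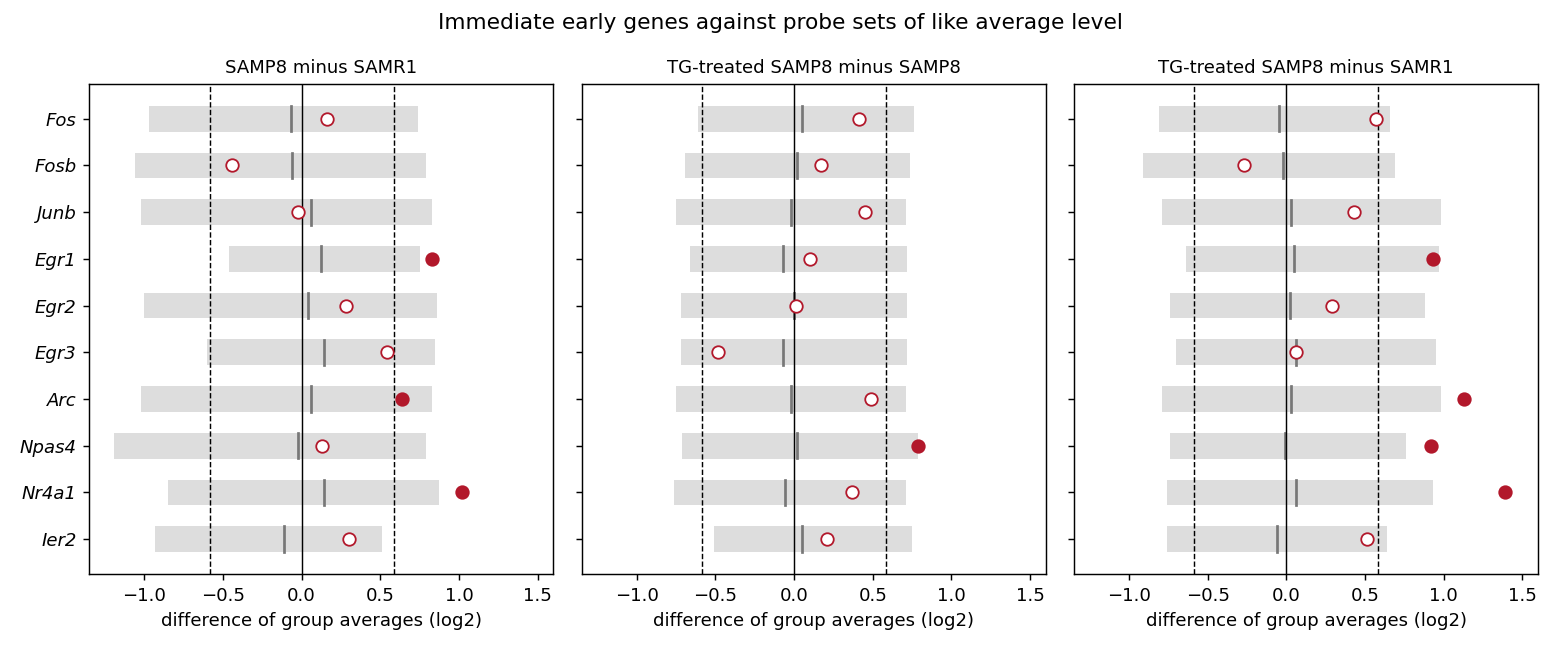
The horizontal axis is the difference of group averages (log2) for each gene in 3 comparisons. Grey bars span the middle 95% of the probe sets of like signal and grey ticks mark their medians, dashed lines mark the 1.5-fold limit, and filled points lie past it. Nr4a1 and Egr1 lie beyond their bars at left, none does in the middle panel, and Arc, Npas4 and Nr4a1 do at right.

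Fos, Fosb and Junb encode subunits of AP-1, the dimeric factor in which a Fos protein pairs with a Jun protein. Fos (chromosome 12, 85473890 to 85477274 in build GRCm38) averaged 5.22 in SAMR1, 5.38 in SAMP8 and, with TG, 5.79. It was thus 1.33-fold higher with TG than without and 1.48-fold higher than in SAMR1, just short of the limit. Fosb, whose truncated product builds up on repeated stimulation, lies on chromosome 7 (19302696 to 19310118) and stood at 5.99, 5.55 and 5.72 in the same order. It was therefore the one gene of the 10 with its highest average in SAMR1, at 1.36-fold above SAMP8. Junb (chromosome 8, 84976909 to 84978748), a Jun partner of Fos proteins, was at 6.93, 6.91 and 7.36. The strains were within 0.02 of each other, and the TG-treated group was 0.45 above SAMP8. So the 3 AP-1 genes were each higher with TG than without, by 0.17 to 0.45, with none past the limit.

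Egr1, Egr2 and Egr3 encode zinc finger factors that bind the same GC-rich element and have roles in long-term memory. Egr1 lies on chromosome 18 (34861207 to 34864956). It averaged 11.75 in SAMR1, 12.58 in SAMP8 and 12.68 with TG, so nearly all of its gap lay between the strains. Egr2 (chromosome 10, 67534469 to 67542188) stood at 6.36, 6.64 and 6.65, the same shape at a smaller size of 0.28 between the strains. Egr3 (chromosome 14, 70077317 to 70082613) has 3 probe sets, of which the brightest is used here, and this one read 8.84, 9.38 and 8.90. The other 2 read 6.86, 7.18 and 6.90, and 8.73, 8.87 and 8.34. All 3 were highest in SAMP8, with differences of 0.14 to 0.54 between the strains and of -0.28 to -0.53 with TG. They differed on TG-treated SAMP8 against SAMR1, at 0.04, 0.06 and -0.39, so Egr3 has no single direction there. The identifiers place only the probe set reading 6.86 in SAMR1 on chromosome 14 and call the other 2, the one used here included, unmapped.

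Npas4 encodes a factor found mainly in neurons and induced by calcium entry more selectively than the others, and it drives inhibitory synapse genes and Bdnf. On chromosome 19 (4984353 to 5003439), it averaged 5.73 in SAMR1 and 5.86 in SAMP8, against 6.65 with TG. The 2 vehicle groups were within 0.13, and the TG-treated group stood apart from both. Its difference of 0.79 with TG was above that of 97.4% of probe sets of like signal, and at the upper end of their middle 95%, also 0.79. Nr4a1, an orphan nuclear receptor tied to dendritic spine control and metabolism, lies on chromosome 15 (101253902 to 101274795). Here the averages were 7.78, 8.80 and 9.17, with 1.02 of the gap between the strains and 0.37 with TG. Its strain difference was above that of 98.7% of probe sets of like signal.

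Arc is the effector of the group, a synaptic protein that promotes the removal of AMPA receptors and forms capsid-like shells. It sits on chromosome 15 (74669081 to 74672570) and rests on 1 probe set, averaging 6.88 in SAMR1, 7.52 in SAMP8 and 8.01 with TG. The steps were of like size, 0.64 between the strains and 0.49 with TG. Ier2, a small nuclear protein of the rapid response, lies on chromosome 8 (84661331 to 84662852), 314056 bases from Junb. Its averages of 4.56, 4.86 and 5.07 gave differences of 0.30 and 0.21, and the TG-treated group was 1.42-fold above SAMR1. Both genes therefore kept the order SAMR1, SAMP8, TG-treated SAMP8, Arc with the wider gap.

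Of other rapid response genes, 39 were measured, and most had a higher average in SAMP8 than in SAMR1, with no such lean for TG. Between SAMP8 and SAMR1, 28 had a higher and 11 a lower average in SAMP8, with a median of 0.18. Past the limit, 5 were higher and 1 lower, together 15.4% of the list against 11.1% of all probe sets. The higher ones were Dusp1 (0.80), a phosphatase that switches off MAP kinases, the cell cycle inhibitor Cdkn1a (0.77), the zinc finger factor Klf6 (0.70), Ier3 (0.63) and the matrix protein gene Ccn1 (0.60), and the lower one was the kinase gene Pim1 (-0.59). Against probe sets of like signal, 4 were higher and 0 lower past the limit. With TG, 21 were higher and 18 lower, and the median of 0.03 was close to that of all probe sets and turned to -0.03 against probe sets of like signal and length. Past the limit with TG lay 10.3% of the list, near the 8.21% of all probe sets, so the genes named next are not a result about the list. Egr4, the remaining Egr gene, was 1.79-fold higher with TG. It averaged 5.10 in SAMR1, 4.95 in SAMP8 and 5.79 with TG, so the TG-treated group stood above both others, as for Npas4. Klf10 was 1.61-fold higher with TG. Ccn2, a matrix protein gene, and Ptgs2, the inducible cyclooxygenase, were each 1.54-fold lower, and against probe sets of like signal 1 gene of the list was lower past the limit. The paralogs of Nr4a1, named after their values were seen, were not past the limit in either comparison with SAMP8: Nr4a2 stood at 13.08, 12.93 and 12.67 and Nr4a3 at 13.87, 14.07 and 14.10.

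Late response genes, which follow the immediate early factors, numbered 15. In SAMP8 vs SAMR1, 4 were higher past the limit: the opioid precursor gene Penk (1.28), the neurite growth gene Nrn1 (1.05), the neuropeptide precursor gene Vgf (0.74) and the prohormone convertase gene Pcsk1 (0.67). Inhba, an activin subunit gene, was lower at -0.63. Together they made 33.3% of the list, against 11.1% of all probe sets. Against probe sets of like signal, 3 were higher and 0 lower past the limit. With TG, Nptx2, a pentraxin that clusters AMPA receptors, and Vgf were higher by 0.67 and 0.65, and Bdnf, the neurotrophin gene, was lower at -0.74. These made 20% of the list, against 8.21% of all probe sets. Vgf averaged 7.11 in SAMR1, 7.85 in SAMP8 and 8.50 with TG, higher at both steps, whereas Bdnf stood at 8.76, 9.16 and 8.42. The median of the list was 0.15 between the strains. With TG it was 0.00, and 0.18 against probe sets of like signal and length.

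Regulators upstream of these genes were split nearly evenly between the strains. Of 26 measured, 14 were higher and 12 lower in SAMP8 than in SAMR1, with a median of 0.08, and Srf, the serum response factor, was the single one past the limit at 0.68. Its averages were 7.69, 8.37 and 8.41. Srf alone is 3.85% of the list, below the 11.1% of all probe sets. Against probe sets of like signal, 12 were higher and 14 lower, the median was -0.03 and 0 passed the limit. With TG, 8 were higher and 18 lower, with a median of -0.16, and the CREB coactivator gene Crtc1 (-0.66) and the kinase gene Rps6ka2 (-0.64) were lower past the limit. Past the limit were thus 7.69% of the list, against 8.21% of all probe sets. The lean to lower averages narrowed to 11 higher and 15 lower, with a median of -0.06 and 0 past the limit, against probe sets of like signal and length. Among 14 genes for binding partners of the encoded proteins, Batf2 was lower in SAMP8 than in SAMR1 (-0.61) and none passed the limit with TG. Batf2 alone is 7.14% of that list, below the 11.1% of all probe sets. Against probe sets of like signal, 0 of the 14 passed the limit between the strains.

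**Figure D3:**
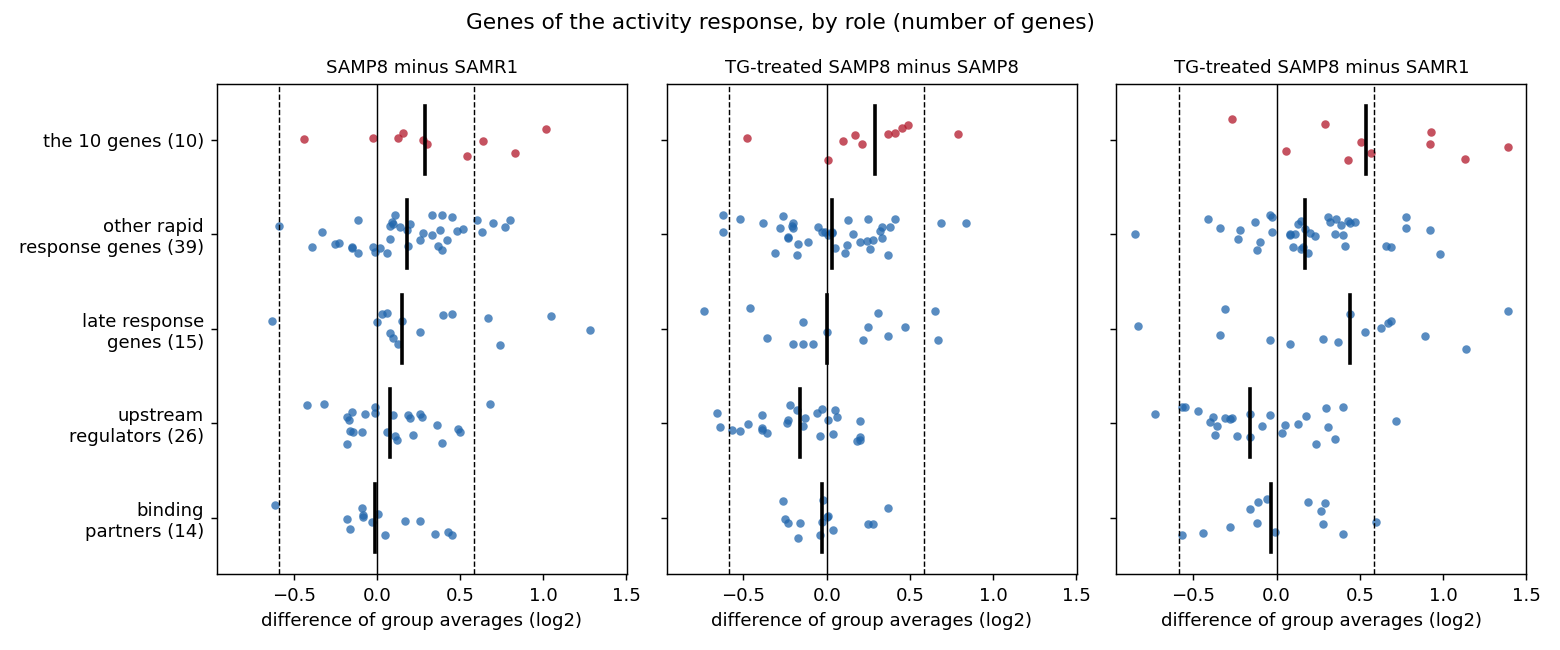
Each point is 1 gene, its difference of group averages (log2) on the horizontal axis, with the number of genes beside each list. Black bars are list medians and dashed lines the 1.5-fold limit. The 10 genes (red) have medians of 0.29, 0.29 and 0.54, and the other rapid response genes 0.18, 0.03 and 0.17.

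In tissue RNA, fewer cells of a type and less RNA per cell cannot be told apart, so marker genes were read beside these results. The hippocampal markers Prox1 (dentate granule cells), Neurod6 (pyramidal cells) and Wfs1 (CA1) had averages of 11.26, 11.85 and 11.00, of 14.86, 14.85 and 14.88, and of 10.79, 11.23 and 10.75. Over 8 general neuron markers the median difference was 0.20 between the strains and 0.11 with TG, or 0.08 and 0.17 against probe sets of like signal, where 4 were above and 4 below 0 between the strains. Their summed signal says little, since Syt1 read 19.70 in every group, near the highest level on these arrays. Tubb3 (11.56, 12.07 and 12.33), Eno2 (11.69, 11.98 and 12.22) and Rbfox3 (11.45, 11.56 and 11.77), named after their values were seen, stood in the same order as Arc and Nr4a1. Map2 (12.28, 11.62 and 11.67) and Nefl (14.32, 14.28 and 14.46) were lowest in SAMP8. Snap25 (17.92, 18.23 and 18.06) and Stmn2 (14.79, 15.43 and 15.30) were highest in SAMP8. Of 12 markers of hippocampal excitatory neurons, Prox1, Neurod6 and Wfs1 included, 3 were higher in SAMP8 past the limit and 1 was lower with TG. Those are 25% and 8.33% of the list, against 11.1% and 8.21% of all probe sets. Against probe sets of like signal, 1 was higher between the strains past the limit, and the median of 0.22 became 0.11. With TG, 7 of the 12 had higher and 5 lower averages, with a median of 0.02. Dkk3 (12.53, 12.73 and 13.27) and Mpped1 (11.55, 11.78 and 11.91), named after their values were seen, stood in the order of Arc and Nr4a1. Fibcd1 and Cabp7 did so with smaller gaps, and the rest of the list did not.

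Heat shock genes, induced by stress and handling, stood in the order SAMR1, SAMP8, TG-treated SAMP8 in 2 of 3 cases. Dnajb1 averaged 8.51 in SAMR1, 9.28 in SAMP8 and 9.92 with TG, and Hspa1a 7.37, 7.72 and 8.01. Hspb1 went slightly the other way, at 4.09, 3.95 and 3.91. The log2 of the summed signal of these 3 was 9.10, 9.73 and 10.28. Their part in the differences of the immediate early genes was not tested.

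Markers of tissue outside the hippocampal neurons differed in both directions. The summed signals below are log2 values and follow the brightest genes of each list. These lists were drawn up with earlier results of these data known, so they are description only. In the smooth muscle and pericyte list of 6, past the limit, 2 were higher and 1 lower in SAMP8 than in SAMR1, and 1 was higher and 2 lower with TG. That is 50% of the list each time, against 11.1% and 8.21% of all probe sets. Its summed signals were 9.76, 10.82 and 10.48. The 8 meningeal markers had summed signals of 11.48, 11.61 and 10.41. With TG, 3 of them (Ptgds, Igf2 and Dcn) were lower past the limit, 37.5% of the list against 8.21% of all probe sets. Yet 4 of 8 had higher averages with TG, and the median was -0.02. The 6 choroid plexus markers had summed signals of 9.26, 9.93 and 10.38. All 6 endothelial markers had lower averages with TG, with a median of -0.38, and summed signals of 11.56, 12.12 and 11.53, of which Abcb1a (6.50, 10.82 and 9.90) had the widest strain difference. For 7 thalamic markers the summed signals were 11.40, 11.70 and 10.77, and for 6 striatal markers 12.55, 12.42 and 12.49. The thalamic sum follows Prkcd, its brightest gene (10.85, 11.03 and 9.53). With TG the median of that list was -0.04, with 3 genes higher and 4 lower. Glial lists had summed signals of 18.45, 18.51 and 18.47 (astrocytes, 6 genes), 18.89, 18.74 and 18.94 (oligodendrocytes, 6 genes) and 13.06, 13.20 and 13.19 (microglia, 7 genes). The summed choroid plexus signal thus had the order of most of the 10 genes, as did Ttr (8.45, 9.33 and 10.05), although 4 of its 6 genes had lower averages with TG. The part of these tissues in the differences was not tested.

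**Figure D4:**
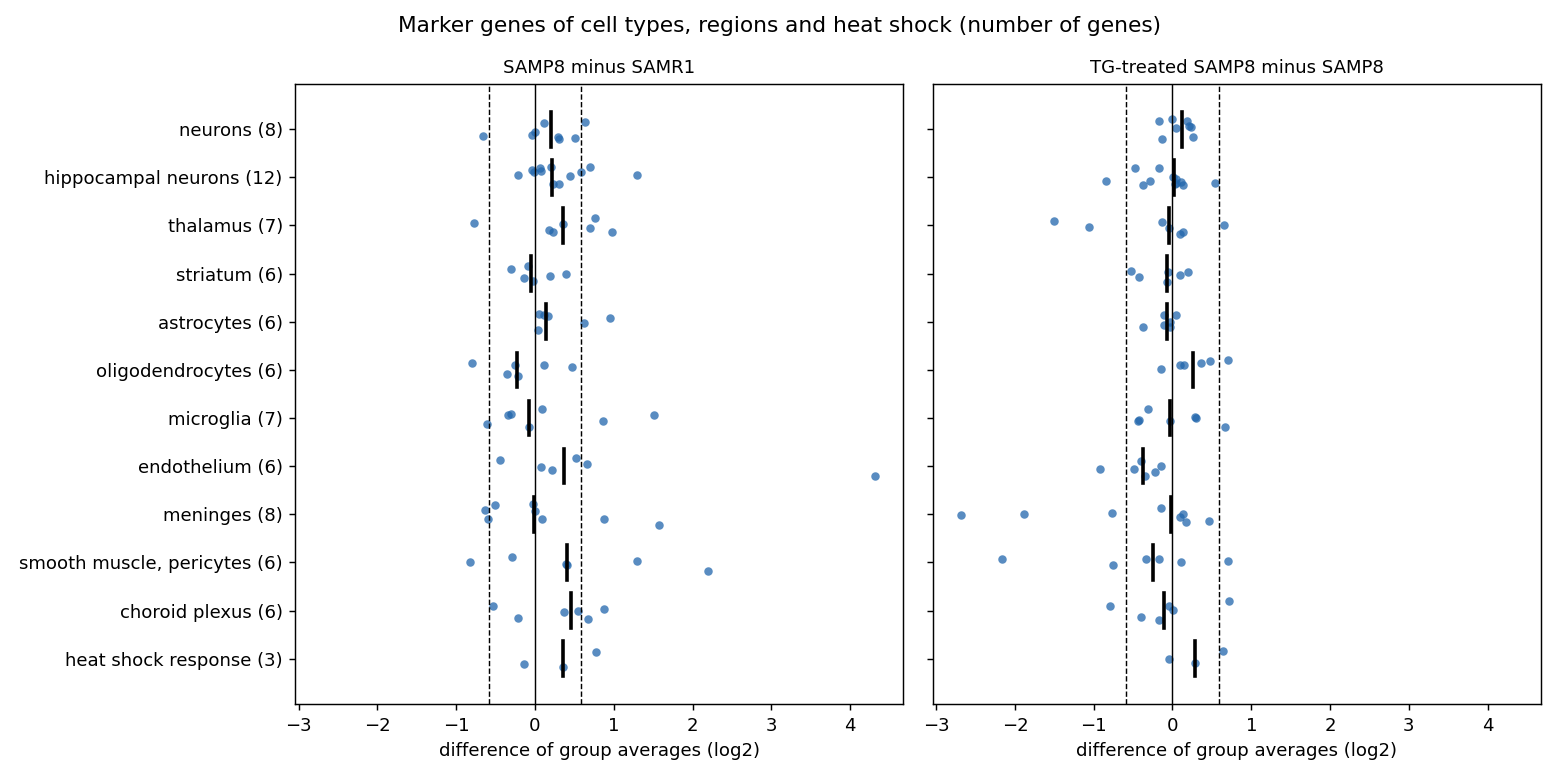
Each point is 1 marker gene, with its difference of group averages (log2) on the horizontal axis, for SAMP8 minus SAMR1 and for TG-treated SAMP8 minus SAMP8. Black bars are list medians, dashed lines the 1.5-fold limit, and numbers are genes per list. Neuron markers have medians of 0.20 and 0.11, the 3 heat shock genes 0.35 and 0.29, and endothelial markers 0.37 and -0.38.

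The 10 genes are short, with genomic spans of 1522 to 20894 bases and a median of 4523, against a median of 17230 over the probe sets that could be placed. Spans no longer than the longest of them belonged to 55.2% of these probe sets. Such probe sets had a median difference of -0.03 between the strains and 0.05 with TG, and longer ones 0.05 and -0.06. The median of the 10 genes therefore lay against this shift of short genes between the strains, and in its direction with TG. Fosb and Junb between the strains, and Egr3 with TG, went the opposite way from the other genes. The shift pools all spans up to 20894 bases, and single genes can differ from it. Against probe sets of like signal and length, the median of the 10 genes with TG went from 0.29 to 0.23, with 7 above 0 and 3 below. Egr1 went from 0.10 to -0.22 with TG, while Nr4a1 moved the other way, from 0.37 to 0.45.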

How the data were processed

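Hippocampal RNA was hybridized to Clariom S Mouse arrays. The authors summarized the arrays by SST-RMA in the Transcriptome Analysis Console (4.0.1 in the series' text) and deposited 2 tables with group averages on the log2 scale. The tables name mm10 (GRCm38) as annotation. The kind of average is not given in the file headers. Columns of the authors' own comparisons (fold changes, p-values and adjusted p-values) were not used. The labels give 3 arrays per group, whereas the series' text speaks of duplicates, and a description on each record concerns another experiment and was not used. The number of arrays limits the precision.

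From the averages, 3 differences were computed for 22206 probe sets with Python 3.11.15, numpy 2.4.6 and pandas 2.3.3, and plotted with matplotlib 3.10.9. For genes with several probe sets, that of highest mean level was taken, and older symbols were matched through RefSeq synonyms that are not another gene's current symbol. Hspa1b and Rps6ka4 share a probe set with another symbol and were left out. Positions and spans come from RefSeq for GRCm38.p6, and 97.2% of probe sets had a span. Named are all 10 genes and, of each pathway list, genes past 1.5-fold in either comparison with SAMP8, at most the 5 highest and 5 lowest. The counting of genes past the limit was tested on simulated data. The genes and lists were chosen with earlier results of these data known. A planned search of promoter motifs was not run, since no promoter sequence was used here.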

Additional observations from a re-analysis of the deposited data

How the results depend on the processing

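Counts of the 10 genes past the limit followed the limit chosen. At 1.2-fold, 7 genes passed in SAMP8 vs SAMR1, 6 in TG-treated vs nontreated SAMP8 and 9 in TG-treated SAMP8 vs SAMR1, where 40.8%, 38.2% and 40.5% of all probe sets passed. At 2-fold, 1, 0 and 2 passed, against 2.22%, 0.761% and 1.81%. The counts and medians stayed within 1.5 times and 0.1 of those given under 5 other settings: subtracting the median of all probe sets, of those of like signal, or of those of like signal and gene length (chosen after seeing the data), averaging the probe sets of a gene, and dropping the dimmest 25% of all probe sets. Of 120 values of single genes under 4 of these settings, 4 crossed the limit. Arc in SAMP8 vs SAMR1 dropped below it at 0.58 against like signal and again against like signal and length, Egr1 in TG-treated SAMP8 vs SAMR1 dropped to 0.50 against like signal and length, and Fos in that comparison passed it at 0.62 against like signal. The count in SAMP8 vs SAMR1 thus went from 3 to 2 under both settings. In TG-treated SAMP8 vs SAMR1 it went from 4 to 5 against like signal and to 3 against like signal and length. Leaving out arrays was not run, because values per array were not analysed here. No paired analysis was possible because the tables hold group averages and carry no replicate numbers.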
